A study of Bos taurus with 16 samples.

Results

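The genes described here are 10 transcription regulators known from the trophectoderm, the outer epithelium of the blastocyst that later forms the placenta. They are CDX2, TEAD4, GATA2, GATA3, TFAP2A, TFAP2C, EOMES, HAND1, ELF3 and ID2. They were taken by name from the array platform's probe-to-gene table, which gave them 15 probes, and they are 10 of the 15216 genes with a named probe. TFAP2A and TFAP2C had 3 probes each, TEAD4 had 2 and each of the others had 1. A gene's value was the mean of its probes.

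The study asked how oilseed fed to the mother relates to gene expression in the early embryo. Blastocysts were flushed on day 7.5 from non-lactating Holstein cows that had received 1 of 3 rolled oilseeds for at least 35 days. Canola, the control (CAN, 8 cows), supplies mostly oleic acid, flax (FLX, 8 cows) α-linolenic acid and sunflower (SUN, 7 cows) linoleic acid. All cows were superstimulated with follicle-stimulating hormone and inseminated with semen of 1 sire, so the controls carried these treatments too. Embryos of similar stage from a cow were pooled, and the amplified RNA was labelled with Cy3 or Cy5 and hybridised on 16 two-colour arrays. Each of 4 FLX and 4 SUN replicates was set against a CAN sample on an array and again with the dyes exchanged, and the 2 arrays were averaged into 1 replicate. Which cows stand behind a replicate is not given in the sources used here, so the spread between replicates may be partly technical. CAN samples labelled with the same number recur on the FLX and SUN arrays, and the diets' values of 1 number were treated as sharing that CAN sample. A value common to both diets of 1 number can lie in the diet samples or in that CAN sample, and these cannot be told apart.

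Values are log2 ratios of diet over CAN, so 1 stands for a doubling. The log base and the dye order of the deposited ratio were not stated: base 2 and Cy5 over Cy3 were assumed, and the opposite dye order would turn every sign. The table holds no signal intensities. The level of a gene, its distance from background and the presence of trophectoderm in each pool could therefore not be checked. In whole embryos a lower ratio can come from fewer cells of a type or from less RNA per cell, and these cannot be told apart. The number of arrays limits the precision. The correlation over all probes between an array and its dye exchange ran from 0.17 to 0.62.

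In the mouse, TEAD4 acts with the Hippo pathway's coactivator YAP in the outer cells of the morula to switch on Cdx2 and Gata3, and CDX2 then represses the pluripotency programme there. GATA and AP-2 factors act beside CDX2 in trophectoderm of several mammals. Cattle blastocysts keep a free trophectoderm for days before they elongate and attach.

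None of the 10 genes passed the test with either diet. Limma fits a linear model per gene and draws each gene's variance toward a value common to all genes. That variance was estimated over the replicates of both diets together. With limma, 0 members passed a false discovery rate of 0.05 in FLX against CAN, in SUN against CAN, or in FLX against SUN. Over all genes the percentage called was 0 in each of the 3 comparisons. At an unadjusted p under 0.05 there were 0 members as well, where the percentage of all genes was 3.15 in FLX, 6.18 in SUN and 2.09 between the diets. With the replicate number as a block, FLX against SUN had 1 member, ID2, at an unadjusted p under 0.05, where 5.61% of all genes were, and 0 at the false discovery rate. Adjusted p-values of the members in limma were 1.00 in FLX, between 0.804 and 0.985 in SUN, and 1.00 between the diets. The median of the 10 log2 ratios was -0.047 in FLX and 0.019 in SUN, where all genes had medians of 0.0011 and 0.0025. The FLX median was -0.024 without FLX replicate 2 and -0.092 without FLX replicate 4, and the SUN median was 0.054 without SUN replicate 3. Over the 8 replicates of both diets, the SD of a member's gene mean ran from 1.15 for ID2 to 0.078 for TEAD4.

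**Figure D1:**
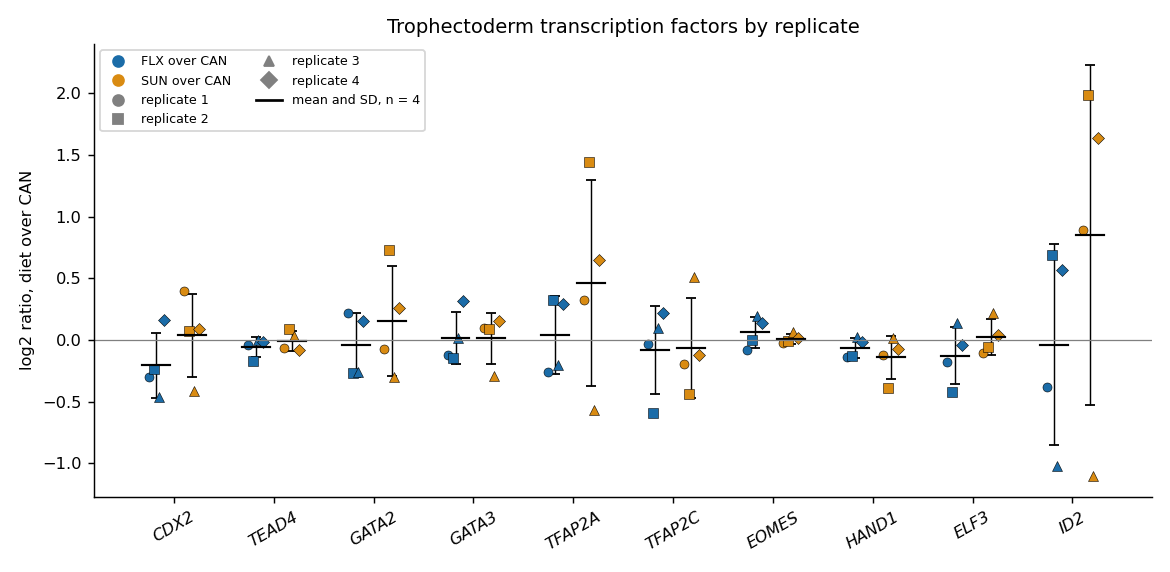
Log2 ratio of diet over CAN (vertical axis) for the 10 genes, 1 point per replicate, with the mean and SD of 4 replicates as black lines, FLX in blue and SUN in orange. ID2 spans -1.10 to 1.98 and TFAP2A -0.57 to 1.45, while TEAD4 and EOMES stay within 0.20 of 0.

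CDX2 encodes a caudal-type homeodomain factor that marks the trophectoderm. Its log2 ratios in FLX replicates 1 to 4 were -0.30, -0.23, -0.46 and 0.16. In SUN they were 0.40, 0.072, -0.41 and 0.093. CDX2 was below CAN in 3 of 4 FLX replicates and above it in 3 of 4 SUN replicates, and the diets overlapped. The mean was -0.21 ± 0.26 (SD, n = 4) in FLX and 0.037 ± 0.34 (SD, n = 4) in SUN. Leaving out FLX replicate 4 took the FLX mean to -0.33, with an adjusted p of 0.960 in limma. Arrays with CAN in Cy3 put CDX2 in SUN at 0.22 and arrays with CAN in Cy5 at -0.14.

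TEAD4, a TEA-domain factor upstream of Cdx2 in the mouse, had gene means close to CAN. The FLX log2 ratios were -0.040, -0.17, 0.0017 and -0.017, and the SUN log2 ratios were -0.065, 0.086, 0.036 and -0.085. All 8 values lay close to 0 and the diets overlapped. The means were -0.057 ± 0.078 (SD, n = 4) and -0.0069 ± 0.081 (SD, n = 4). Of all genes, 10.5% had a smaller SD over the 8 replicates. That small SD belongs to the mean of 2 probes, which had a Pearson correlation of -0.45 with each other over the 8 replicates. The single probes had SDs of 0.16 and 0.14, wider than the SD of 0.091 for EOMES. That EOMES SD also belongs to averages, of arrays and dye exchanges that correlated by -0.53 over the 8 replicates.

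GATA2 and GATA3 are zinc-finger factors of trophoblast. GATA2 log2 ratios were 0.22, -0.26, -0.26 and 0.15 in FLX, a mean of -0.038 ± 0.26 (SD, n = 4). In SUN they were -0.076, 0.73, -0.30 and 0.26, a mean of 0.15 ± 0.45 (SD, n = 4). SUN replicate 2 stood highest, and without it the SUN mean was -0.039. GATA3 log2 ratios were -0.12, -0.14, 0.014 and 0.32 in FLX and 0.10, 0.089, -0.29 and 0.15 in SUN. Its means of 0.017 ± 0.21 (SD, n = 4) and 0.013 ± 0.20 (SD, n = 4) were almost equal, and the diets overlapped. GATA3 in SUN was 0.26 on arrays with CAN in Cy3 and -0.23 on arrays with CAN in Cy5, so its sign depended on the dye.

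TFAP2A and TFAP2C encode AP-2 factors, which bind DNA as dimers and are expressed in trophoblast. TFAP2A had log2 ratios of -0.26, 0.33, -0.20 and 0.29 in FLX, a mean of 0.038 ± 0.31 (SD, n = 4). In SUN its log2 ratios were 0.32, 1.45, -0.57 and 0.65, a mean of 0.46 ± 0.83 (SD, n = 4), with an adjusted p of 0.814 in limma. TFAP2A was above CAN in 3 of 4 SUN replicates, and replicate 3 lay below. The SUN mean was 0.13 without SUN replicate 2 and 0.81 without SUN replicate 3, with an adjusted p of 0.310 in the latter. By its SD over the 8 replicates, 0.63, TFAP2A ranked 316 among the 15216 genes.

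The probes of TFAP2A differed in size. Probe EMBV3_18537 had log2 ratios of 0.62, 3.53, -0.71 and 1.16 in the SUN replicates, where 3.53 is an 11.6-fold ratio and ranked 14 from the top of the 43794 probes of that replicate, or 14 from the bottom under the opposite dye order. On the 2 arrays of SUN replicate 2 this probe read 4.08 with SUN in Cy5 and 2.98 with SUN in Cy3. Probes EMBV3_01855 and EMBV3_03075 read 0.76 and 0.051 in that replicate. EMBV3_03075 lay between -0.31 and 0.071 over the 8 replicates. The 3 probes were positively correlated over the 8 replicates, with Pearson r between 0.63 and 0.77. The SUN means of EMBV3_18537, EMBV3_01855 and EMBV3_03075 were 1.15, 0.27 and -0.030, so the SUN mean of TFAP2A leaned on EMBV3_18537. The median of the probes gave TFAP2A a FLX mean of -0.017 in place of 0.038. In SUN it gave 0.27 in place of 0.46.

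TFAP2C had log2 ratios of -0.034, -0.59, 0.093 and 0.22 in FLX and of -0.20, -0.44, 0.51 and -0.12 in SUN. Replicate 2 was the lowest in both diets, and the diets overlapped. The means were -0.079 ± 0.36 (SD, n = 4) and -0.061 ± 0.41 (SD, n = 4). The correlation between pairs of its 3 probes ran from 0.48 to 0.82. Probe EMBV3_27962 departed from EMBV3_17753 in FLX replicate 1, at 0.49 against -0.47, and in FLX replicate 3, at -0.34 against 0.37.

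**Figure D2:**
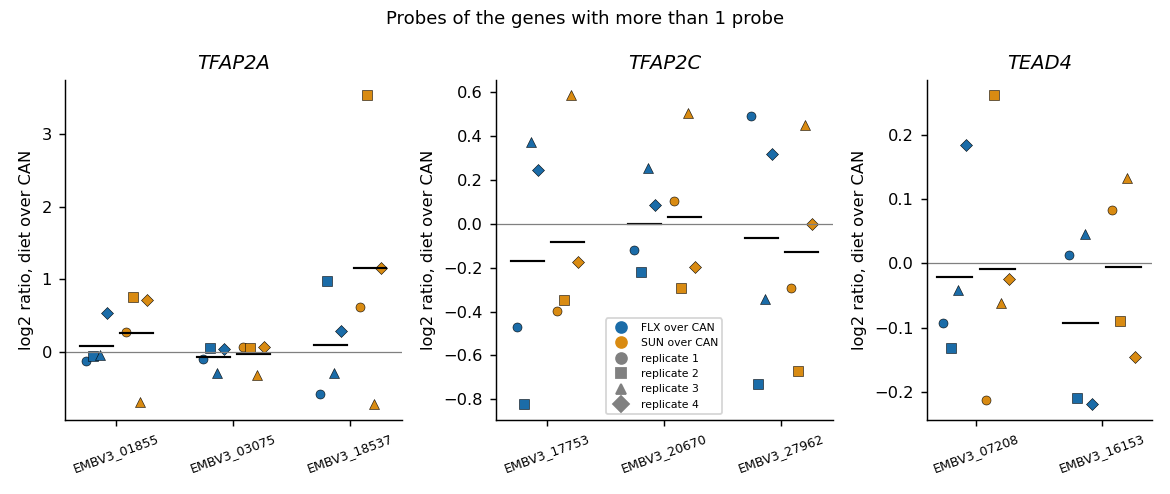
Log2 ratio of diet over CAN (vertical axis) for each probe of TFAP2A, TFAP2C and TEAD4, 1 point per replicate, FLX in blue and SUN in orange, with black lines at the mean of 4 replicates. Probe EMBV3_18537 of TFAP2A reaches 3.53 in SUN replicate 2, and EMBV3_03075 stays between -0.31 and 0.071.

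EOMES, a T-box factor needed for trophoblast stem cells in the mouse, had log2 ratios of -0.085, -0.00075, 0.20 and 0.13 in FLX. In SUN they were -0.025, -0.012, 0.066 and 0.017. The means were 0.061 ± 0.13 (SD, n = 4) and 0.011 ± 0.040 (SD, n = 4), and the diets overlapped. The EOMES mean in SUN was -0.14 on arrays with CAN in Cy3 and 0.16 on arrays with CAN in Cy5. In FLX these were 0.18 and -0.061. HAND1, a basic helix-loop-helix factor needed for trophoblast giant cells in the mouse, had log2 ratios of -0.14, -0.13, 0.027 and -0.018 in FLX and of -0.12, -0.39, 0.016 and -0.077 in SUN. Its means were -0.066 ± 0.083 (SD, n = 4) and -0.14 ± 0.17 (SD, n = 4). HAND1 had the lowest SUN p-value of the 10, and its adjusted p in limma was 0.804. The HAND1 mean in SUN was 0.012 on arrays with CAN in Cy3 and -0.30 on arrays with CAN in Cy5.

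ELF3, an Ets-family factor of epithelia, had log2 ratios of -0.18, -0.42, 0.13 and -0.044 in FLX and of -0.10, -0.061, 0.22 and 0.044 in SUN. The means were -0.13 ± 0.23 (SD, n = 4) and 0.024 ± 0.14 (SD, n = 4). At each of the 4 replicate numbers ELF3 was lower in FLX than in SUN, with differences of -0.076, -0.36, -0.085 and -0.088. This holds for the averaged arrays. At number 4, ELF3 read 0.030 in FLX and -0.37 in SUN with the diet in Cy5. With the diet in Cy3 it read -0.12 and 0.46. The mean of FLX minus SUN was -0.092 on arrays with CAN in Cy3 and -0.21 on arrays with CAN in Cy5. ELF3 was the only member with 1 sign at all 4 numbers in FLX against SUN, that is 1 of 10, where 13.5% of all genes had that. The difference had a mean of -0.15 ± 0.14 (SD, n = 4) and an adjusted p of 1.00 in limma. In FLX against CAN and in SUN against CAN, 0 of 10 members kept 1 sign in all 4 replicates, where 10.5% and 13.4% of all genes did.

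ID2 encodes a helix-loop-helix protein without a DNA-binding region, which holds basic helix-loop-helix factors in inactive dimers, and its transcript is an early trophectoderm marker in the mouse. Its log2 ratios in FLX were -0.38, 0.69, -1.02 and 0.56. In SUN they were 0.89, 1.98, -1.10 and 1.63. Replicate 3 of both diets was low, near a log2 ratio of -1, and replicates 2 and 4 of both diets were above CAN. Since both diets of 1 number share a CAN label, shifts in the diet samples and in that CAN sample cannot be told apart here. In SUN replicate 4, ID2 ranked 7 from the top of the 15216 genes. In SUN replicate 3, it ranked 60 from the bottom. Under the opposite dye order these ranks would be 7 from the bottom and 60 from the top. Over the 8 replicates its SD ranked 29 among all genes.

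The mean of ID2 was -0.037 ± 0.81 (SD, n = 4) in FLX and 0.85 ± 1.38 (SD, n = 4) in SUN. The SUN mean corresponds to a 1.80-fold ratio and had an adjusted p of 0.810 in limma. Its standard error in limma, drawn from the spread of both diets, was 0.48. The SUN mean was 0.47 without SUN replicate 2 and 1.5 without SUN replicate 3, the latter with an adjusted p of 0.281. FLX minus SUN was -1.27, -1.29, 0.083 and -1.07 at numbers 1 to 4. ID2 was thus lower in FLX at 3 of 4 numbers, with a mean difference of -0.89 ± 0.66 (SD, n = 4) and an adjusted p of 1.00. With the number as a replicate block, the paired fit gave the same difference a standard error of 0.23 and an adjusted p of 0.840.

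**Figure D3:**
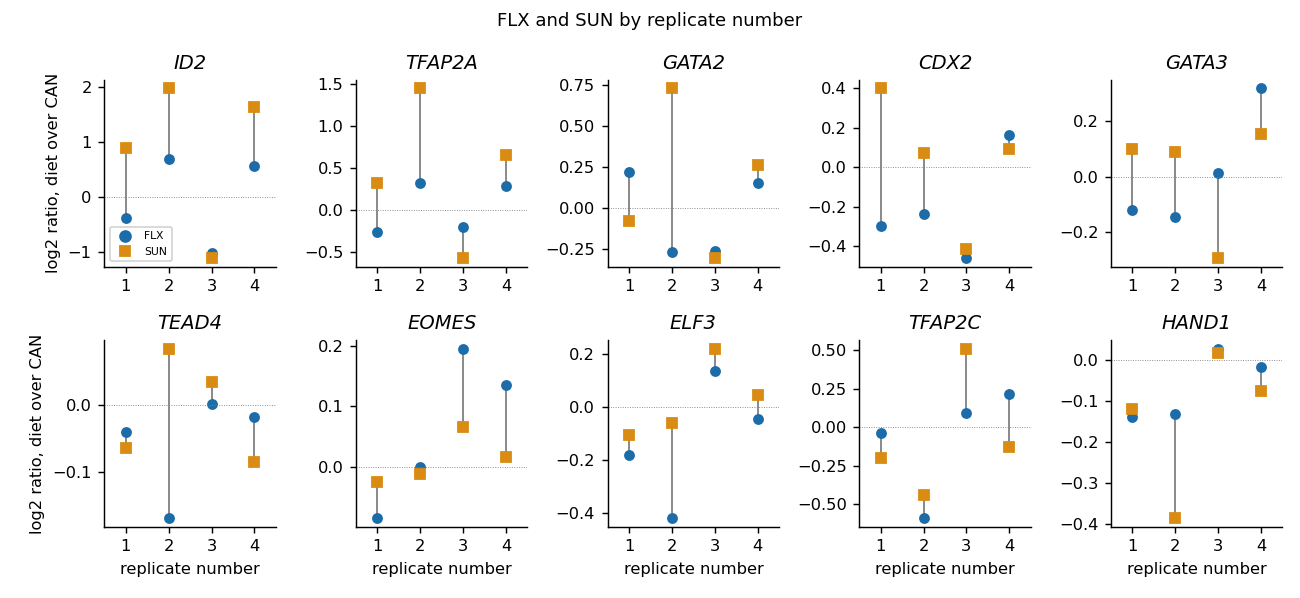
Log2 ratio of diet over CAN (vertical axis) against replicate number (horizontal axis) for each gene, with FLX as blue circles, SUN as orange squares and a grey line joining the 2 diets of 1 number; vertical scales differ between panels. For ID2 the squares lie above the circles at numbers 1, 2 and 4, by 1.27, 1.29 and 1.07, and the pair at number 3 lies near -1.

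The groups were also compared by range. For 0 of 10 members did the 4 FLX values lie wholly above or below the 4 SUN values, where 1.85% of all genes were separated in this way. FLX minus SUN had a positive mean for 3 of the 10 members, where 48.9% of all genes had one. The members' median was -0.10, beside -0.0029 over all genes. It was -0.033 without FLX replicate 2 and -0.058 without SUN replicate 2.

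The dye exchanges show for which members the values ran alike over the replicates on both arrays. For ID2, the correlation over the 8 replicates between the array with the diet in Cy5 and the array with it in Cy3 was 0.97. It was 0.99 for probes EMBV3_01855 and EMBV3_18537 of TFAP2A, 0.97 for EMBV3_17753 of TFAP2C and 0.90 for GATA2. The remaining TFAP2A probe, EMBV3_03075, had 0.34. The median over all probes was 0.26. CDX2 reached 0.53. GATA3 had 0.082, ELF3 0.098, HAND1 -0.014 and EOMES -0.53. For these last 4 genes the order of the replicates on one array was not repeated on its dye exchange, and their correlations with other members, given below, carry that limit. A low correlation did not always go with a wide gap between the 2 arrays. The median gap over the replicates was 0.16 for GATA3, 0.17 for HAND1 and 0.26 for EMBV3_01855. For ELF3 it was 0.27 and for EOMES 0.30, where the median over all probes and replicates was 0.20. The GATA3 median covers gaps of 0.82 and 0.78 in SUN replicates 1 and 2.

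**Figure D4:**
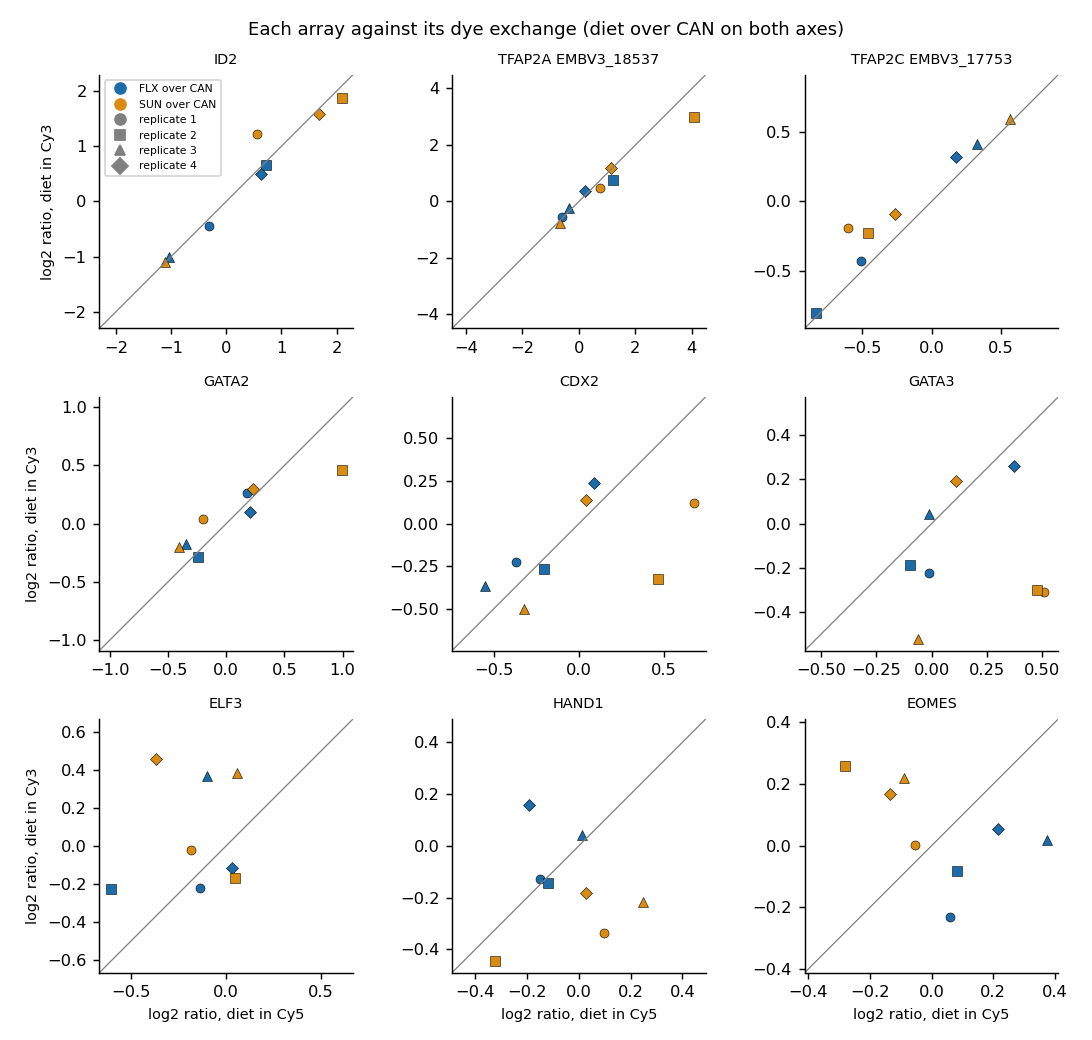
Log2 ratio of diet over CAN on the array with the diet in Cy5 (horizontal axis) against its dye exchange (vertical axis), 1 point per replicate, FLX in blue and SUN in orange, with the line of equality in grey and scales that differ between panels. ID2 (r = 0.97) and probe EMBV3_18537 of TFAP2A (r = 0.99) lie along the line, and EOMES (r = -0.53) does not.

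Correlations among the 10 genes were computed over the 8 replicates as a description. No p-value is given, because FLX and SUN replicates of 1 number share a CAN label and are not independent. Of the 45 pairs, 24 were positive and 21 negative. The limit of 0.7 was chosen after the values were seen: 7 pairs reached it and 3 were at or below -0.7. That is 15.6% and 6.67% of the member pairs, where 3.70% and 3.53% of all gene pairs lay that far out. CDX2 with GATA3, TFAP2C with HAND1 and TFAP2C with ELF3 are among the 7, and HAND1 is in each of the 3. GATA3, HAND1 and ELF3 had dye-exchange correlations of 0.082, -0.014 and 0.098.

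TFAP2A and ID2 ran most closely together, with a Pearson r of 0.94 and a Spearman rho of 0.95. Leaving out any 1 replicate gave r between 0.91 and 0.96, and removing the mean of each replicate number gave 0.91. Each r after this removal rests on 4 differences of FLX minus SUN and still contains their mean. That mean was -0.42 for TFAP2A and -0.89 for ID2, so a shared sign of the means adds to the 0.91. Each TFAP2A probe followed ID2, with r of 0.87, 0.89 and 0.87. CDX2 followed ID2 with r = 0.76 and GATA3 with r = 0.73. GATA2 followed TFAP2A with r = 0.78 and ID2 with r = 0.71. Both values rested on SUN replicates 2 and 3, since they were 0.22 and 0.38 without them. After removal of the number means r was 0.75 for CDX2 and ID2, 0.61 for CDX2 and GATA3, 0.70 for GATA2 and TFAP2A, and 0.47 for GATA2 and ID2.

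TFAP2C ran the other way from its paralog. Its r was -0.69 with TFAP2A and -0.69 with ID2. Without SUN replicates 2 and 3, the farthest from the TFAP2A median, it was -0.34 with TFAP2A. Without FLX replicate 2 and SUN replicate 3, the farthest from the TFAP2C median, it stayed at -0.69 with ID2. TFAP2C was positively related to ELF3 (r = 0.78) and to HAND1 (r = 0.72). Without FLX replicate 2 and SUN replicate 3 the former was 0.27 and the latter 0.89. The 4 TFAP2C values over all 8 replicates were smaller in size once the mean of each replicate number was removed, and the one with HAND1 changed sign. The r of TFAP2C was then -0.25 with TFAP2A, -0.33 with ID2, 0.21 with ELF3 and -0.17 with HAND1. HAND1 had r of -0.81 with TFAP2A, -0.78 with GATA2 and -0.71 with ID2. Without SUN replicates 2 and 3, r was -0.17 both with TFAP2A and with GATA2. Without SUN replicate 2 alone it was -0.43 with TFAP2A and -0.36 with GATA2. With ID2 it was -0.38 without FLX replicate 3 and SUN replicate 2. After removal of the number means the 3 values were -0.81, -0.97 and -0.66. They too rest on 4 differences. For GATA2 and HAND1 the largest was at number 2, where FLX minus SUN was -0.99 and 0.25. TEAD4 had no r at or beyond 0.7 in either direction with another member over all 8 replicates. After removal of the number means its r was 0.90 with GATA2, 0.84 with ELF3 and -0.88 with HAND1. Without FLX replicate 2 and SUN replicate 2, the farthest from the TEAD4 median, these were -0.74, 0.63 and 0.77. There its r was also 0.91 with TFAP2C, -0.84 with TFAP2A and -0.88 with ID2.

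**Figure D5:**
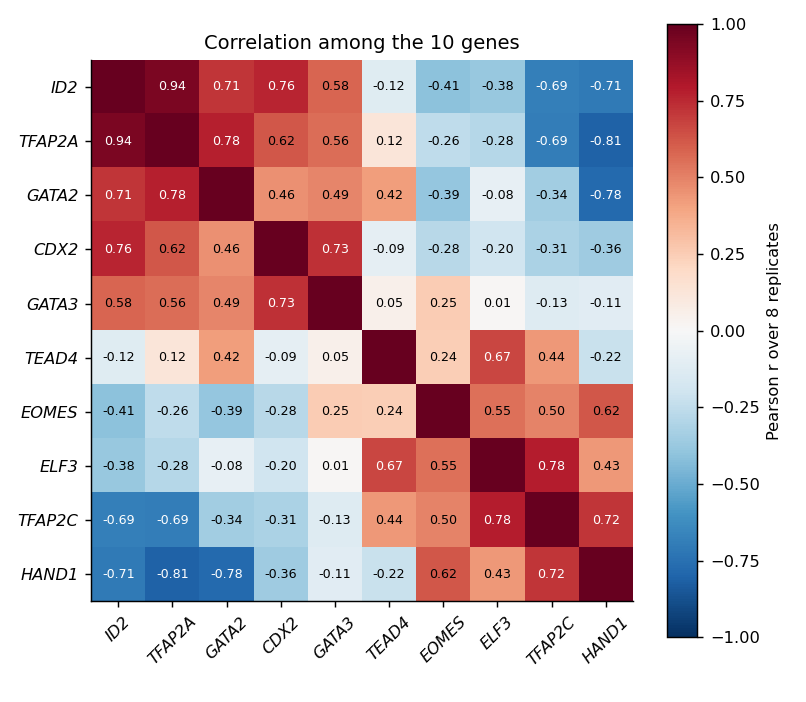
Pearson r over the 8 replicates for each pair of the 10 genes, in red where positive and blue where negative. ID2, TFAP2A, GATA2, CDX2 and GATA3 form the red corner, with 0.94 for ID2 and TFAP2A, and HAND1 is blue against ID2, TFAP2A and GATA2.

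For each member, the 2 other genes with the highest Pearson r over the 8 replicates were listed. They were PRSS8 (r = 0.98) and CORO7 (r = 0.98) for TFAP2A, and TJP1 (r = 0.99) and DIDO1 (r = 0.98) for ID2. PRSS8, a membrane-anchored serine protease of epithelia, ranged from -1.08 to 2.36. TJP1, which encodes the tight junction protein ZO-1, ranged from -0.39 to 0.67. The closest to CDX2 were ZHX1 and INSIG1, and to TEAD4 CFTR and RDH11. TONSL and KCNH6 were closest to GATA2, ESRRG and MTX3 to GATA3, and TGIF2 and TNFSF15 to TFAP2C. For EOMES they were CDC6 and KLHL17, for HAND1 TP63 and BPI, and for ELF3 CHRM5 and SGK1. All 20 values of r lay between 0.95 and 0.99, and each was picked as one of the highest over all named genes.

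Among 26 measured further trophectoderm or trophoblast transcription factors, 0 passed a false discovery rate of 0.05 in limma with either diet. At an unadjusted p under 0.05 there were 0 in FLX and 2 in SUN, both higher, where 3.15% and 6.18% of all genes were. A positive mean was found for 10 in FLX and 19 in SUN, where 50.8% and 51.0% of all genes had one, and these shares are the background for the lists that follow. VGLL1, a TEAD cofactor, had SUN log2 ratios of 0.56, 1.5, -0.15 and 0.44, and its adjusted p in limma was 0.799. It was highest in SUN replicate 2 and lowest in SUN replicate 3, as ID2 and TFAP2A were. SP6 was above CAN in all 4 SUN replicates, with a mean of 0.15, and OVOL1 had a mean of 0.25. In FLX the 3 with the lowest p were SKIL (0.12), DLX4 (-0.12) and ELF5 (-0.14).

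Of 26 Hippo pathway genes, 0 passed in limma with either diet and 1 had an unadjusted p under 0.05 in each, with 12 positive means in FLX and 16 in SUN. LATS2, a kinase that restrains YAP, had a mean log2 ratio of -0.28 in FLX with all 4 replicates below CAN and an adjusted p of 1.00. MOB1B had -0.14 and STK4 0.24 in FLX. In SUN, TEAD2 had 0.39, MOB1A 0.20 and ANKRD1 -0.20.

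Of 29 products of trophectoderm, 0 passed in limma, with 0 in FLX and 4 in SUN at an unadjusted p under 0.05, where all genes had 3.15% and 6.18%. Of the list, 10 had a positive mean in FLX and 19 in SUN. The list's median by replicate was 0.12, 0.56, -0.20 and 0.091 in SUN and -0.0057, 0.043, -0.20 and -0.0088 in FLX. It was lowest in replicate 3 of both diets and highest in replicate 2, the order also seen at those numbers for ID2. OCLN, a tight junction protein, was above CAN in all 4 SUN replicates with a mean of 0.42 ± 0.24 (SD, n = 4) and an adjusted p of 0.799 in limma. PAG12, a pregnancy-associated glycoprotein, had means of -0.28 in FLX and 0.71 in SUN. CDH1 had -0.095 and -0.20. IFNT, interferon tau, had a mean of -0.72 ± 1.26 (SD, n = 4) in FLX.

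Markers of other cells that a flushed blastocyst pool could hold were set beside these values, and 0 of them passed in limma with either diet. At an unadjusted p under 0.05 there were 0 in FLX and, in SUN, 1 each of the epiblast, hypoblast and cumulus or granulosa lists. In replicate 3, where ID2 was lowest in both diets, the uterine gene LTF, lactoferrin, was at -2.21 in FLX and -2.68 in SUN, and between -0.26 and 0.25 in the other 6 replicates. The median of the 11 measured uterine epithelium markers in replicate 3 was -0.069 in FLX and -0.068 in SUN, and 7 had a negative mean in FLX and 9 in SUN. Whether uterine material, in the diet samples or in the CAN sample of that number, has a part in the ID2 values was not tested. The other named uterine markers had means of 0.061 (ESR1) and -0.082 (WFDC2) in FLX, and of -0.044 (PAEP) and 0.085 (WFDC2) in SUN.

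The median of 20 inner cell mass and epiblast genes was 0.0091 in FLX and -0.040 in SUN, with 10 and 9 positive means. In SUN replicate 3 it was 0.097, where the median of the 10 members was -0.14, and in FLX replicate 3 it was -0.033, where the members' median was 0.0081. Named genes were SALL4 (-0.12), SOX2 (-0.065) and FGF4 (0.045) in FLX, and IL6R (-0.26), NODAL (-0.14) and SPIC (-0.35) in SUN. Among 19 hypoblast genes 11 had positive means in FLX and 10 in SUN. TTR (0.17), HDAC1 (0.24) and FN1 (0.22) were named in FLX, and HDAC1 (0.27), HNF4A (0.40) and COL4A1 (-0.40) in SUN. Of 14 cumulus and granulosa cell markers 4 had positive means in FLX and 11 in SUN. INHA (0.082), TNFAIP6 (-0.19) and STAR (-0.28) were named in FLX, and FSHR (0.22), FOXL2 (0.13) and FST (0.10) in SUN. Of 11 blood markers 8 and 9 had positive means. They included ALAS2 (0.39), HBB (-0.053) and CD14 (0.055) in FLX, and SPI1 (0.12), LYZ (0.13) and CD14 (-0.090) in SUN. The part of these cells in the members' values was not tested.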

How the data were processed

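The deposited values were log2 ratios of 2 dyes for 43794 probes on 16 arrays, made by the authors before deposit; no source used here states how background was corrected or arrays were normalized. The array medians lay between -0.014 and 0.0095, and 0 values were missing. Ratios were signed as diet over CAN from the dye labels, the pair of dye-exchanged arrays of a replicate was averaged, and probes were named through the platform table, with symbols updated for 1524 probes. Of the probes, 21790 had 1 symbol, 0 had several and 22004 had none. Means per gene and single probes were tested with limma 3.58.1 in R 4.3.3 (lmFit and eBayes, Benjamini-Hochberg adjustment over all genes or all probes). The self-test on simulated data for FLX against CAN, over 15216 genes, recovered 90.9% of genes changed 2-fold and 98.3% of those changed 4-fold, with 9.1 false calls per run over 10 runs. Its noise was drawn independently per gene and replicate, so the pairing by number was not simulated. The percentages are averages over genes drawn from all, whose median SD over the 8 replicates was 0.15. They do not give the recovery of a widely spread member such as ID2, with an SD of 1.15.

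FLX and SUN deviations from their diet means correlated over genes by 0.42, 0.58, 0.54 and 0.41 at equal replicate numbers, so the numbers were taken to pair the samples. Among arrays of 1 dye orientation from different samples the correlation ran from -0.22 to 0.53. Among arrays of opposite orientation from different samples it ran from -0.41 to 0.39. The highest value in each case was between FLX replicate 2 and SUN replicate 2, which share a CAN label.

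The members and lists were chosen with earlier results of these data known. Named genes were all members, the 2 genes most like each member, and from every other list the 3 with the lowest p per diet. Alternatives were leaving out a replicate, the replicate block, the slide as a block, each dye orientation alone, all 16 arrays, 2 scalings, the median of probes, a dye-exchange filter and robust eBayes.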

Additional observations from a re-analysis of the deposited data

Results flagged for a closer look

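A replicate stood far from the other 3 of its diet, by Dixon's test, in 3 of 36 groups of 4 values; chance gives about 1 in 20 groups. GATA3 in SUN replicate 3 was -0.29, where the other SUN replicates lay between 0.089 and 0.15. Those are averages of unlike arrays: with SUN in Cy5, GATA3 read 0.51 in replicate 1 and 0.48 in replicate 2. With SUN in Cy3 it read -0.31, -0.30 and -0.52 in replicates 1 to 3, so replicate 3 stood less apart there. Probe EMBV3_01855 of TFAP2A was 0.54 in FLX replicate 4, where the other FLX replicates lay between -0.13 and -0.040. Probe EMBV3_03075 of TFAP2A was -0.31 in SUN replicate 3, where the others lay between 0.051 and 0.071. In SUN replicate 2 this probe read -0.22 with SUN in Cy5 and 0.32 with SUN in Cy3.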

How the results depend on the processing

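Under the 18 alternatives, 0 members passed a false discovery rate of 0.05 in any comparison with limma; the lowest adjusted p of a member was 0.316 in FLX, 0.255 in SUN and 0.840 between the diets. With the replicate block, the paired fit of FLX against SUN called 0 genes and 0 probes and left the members' median at -0.10, so it changed no call at that rate; at an unadjusted p under 0.05 it had 1 member, ID2, where the fit without it had 0. Over all probes, arrays with CAN in Cy5 called 1 in FLX and 2 in SUN, where the averaged replicates called 0. All 16 arrays with the replicate as a random effect called 3 probes and 5 genes in SUN. Leaving out a replicate called between 0 and 2 probes in SUN, with 2 without SUN replicate 3. The cause of these differences was not tested, and no filter on signal could be run without intensities. The filter on probes whose dye exchange correlates above 0 left 24 of 30 member values, without EOMES and HAND1.

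Signs of values that had not passed changed often. They changed for 7 of 30 member values on arrays with CAN in Cy3 and 9 of 30 with CAN in Cy5, and for 16 of 30 on leaving out some replicate. For arrays with CAN in Cy3, the FLX means that changed sign were ID2 (0.0015), FGF4 (-0.0063), HBB (0.0042), HDAC1 (-0.019) and MOB1B (0.0072). The SUN means were EOMES (-0.14), HAND1 (0.012), ELF3 (-0.11), TFAP2C EMBV3_20670 (-0.011) and WFDC2 (-0.063). For FLX minus SUN they were GATA3 (-0.20), TFAP2C (0.047), HAND1 (-0.13) and TFAP2A EMBV3_03075 (0.13). For arrays with CAN in Cy5, the FLX means were TEAD4 (0.070), GATA3 (-0.028), TFAP2A (-0.014), EOMES (-0.061), TEAD4 EMBV3_07208 (0.047) and TEAD4 EMBV3_16153 (0.092). Further FLX means there were TFAP2A EMBV3_01855 (-0.037), TFAP2C EMBV3_20670 (0.065), DLX4 (0.00084), INHA (-0.024), SOX2 (0.017), TTR (-0.036) and WFDC2 (0.069). In SUN they were CDX2 (-0.14), TEAD4 (0.076), GATA3 (-0.23), TFAP2C (0.019), TEAD4 EMBV3_07208 (0.010) and TEAD4 EMBV3_16153 (0.14). SUN also had TFAP2A EMBV3_03075 (0.11), TFAP2C EMBV3_17753 (0.022) and NODAL (0.0077). FLX minus SUN had EOMES (-0.22), TEAD4 EMBV3_07208 (0.037) and TFAP2C EMBV3_27962 (-0.095). Quantile scaling turned ID2 (0.019) and TFAP2C EMBV3_20670 (0.0042) in FLX, and the median of probes turned TFAP2A (-0.017) there. The cause was not tested.

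On leaving out 1 replicate, the FLX ranges that crossed 0 were GATA2 (-0.12 to 0.037), GATA3 (-0.083 to 0.071), ID2 (-0.28 to 0.29), TFAP2A (-0.059 to 0.14) and TFAP2C (-0.18 to 0.092). Among FLX probes they were TEAD4 EMBV3_07208 (-0.089 to 0.016), TFAP2A EMBV3_01855 (-0.075 to 0.15), TFAP2A EMBV3_03075 (-0.11 to 0.0055) and TFAP2A EMBV3_18537 (-0.19 to 0.33). TFAP2C EMBV3_17753 (-0.35 to 0.049), EMBV3_20670 (-0.086 to 0.071) and EMBV3_27962 (-0.25 to 0.15) crossed 0 in FLX too. The SUN ranges were CDX2 (-0.083 to 0.19), ELF3 (-0.040 to 0.067), EOMES (-0.0067 to 0.024), GATA2 (-0.039 to 0.30) and GATA3 (-0.034 to 0.11). SUN also had TEAD4 (-0.038 to 0.019), TFAP2C (-0.25 to 0.064) and WFDC2 (-0.017 to 0.19). Among SUN probes they were TEAD4 EMBV3_07208 (-0.099 to 0.059), TEAD4 EMBV3_16153 (-0.051 to 0.042) and TFAP2A EMBV3_03075 (-0.063 to 0.063). TFAP2C EMBV3_17753 (-0.31 to 0.021), EMBV3_20670 (-0.13 to 0.14) and EMBV3_27962 (-0.32 to 0.052) crossed 0 in SUN. For FLX minus SUN the ranges were GATA2 (-0.34 to 0.00087), GATA3 (-0.097 to 0.058), HAND1 (-0.0057 to 0.13) and TFAP2C (-0.14 to 0.17). The probes were TEAD4 EMBV3_07208 (-0.080 to 0.079), TFAP2A EMBV3_03075 (-0.13 to 0.035) and TFAP2C EMBV3_17753 (-0.27 to 0.14). TFAP2C EMBV3_20670 (-0.14 to 0.13) and EMBV3_27962 (-0.12 to 0.28) completed them.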
